A study of Mus musculus with 13 samples.

Results

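Nkx6.1 and Olig2 peaks fell together, with no Nkx2.2 peak, in 1010 regions of the mouse genome, out of 17913 regions made from the peak lists of Nkx2.2, Nkx6.1 and Olig2. Peaks sharing at least 1 bp were joined into a region, and a region was kept when it held at least 1 Nkx6.1 peak, at least 1 Olig2 peak and no Nkx2.2 peak. The regions were thus chosen by the presence and absence of peaks in the 3 lists, and nothing is tested on it. The assay was ChIP-seq, which sequences the DNA recovered with an antibody to a protein, on neural progenitors derived from mouse embryonic stem cells. The cells had 2 days in suspension and then 3 days with 500 nM retinoic acid and, for the ventral progenitors used for Nkx2.2, Nkx6.1 and Olig2, 160 to 800 nM Smoothened agonist, which switches on Sonic hedgehog signalling. YFP3.1 cells were used for the first Nkx6.1 and Olig2 replicates. Every other ventral ChIP used Rosa26-Gli1FLAG, which derives from YFP3.1. These lines have a mixed background of Swiss Webster, C57BL6/J and 129 Sv. Gli3 was profiled through a 3xFLAG-Avi tag at its start codon in V6.5 (C57BL/6 X 129/sv), in progenitors made without the agonist, so factor, line and culture cannot be told apart in any result on Gli3. There were 2 ChIP libraries per ventral factor and 1 for Gli3, with 1 peak list per factor, so no spread between replicates can be given.

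In the ventral neural tube, Sonic hedgehog divides the progenitors into domains that express different transcription factors. Nkx6.1, a homeodomain protein, is present broadly on the ventral side. Olig2, a basic helix-loop-helix protein, marks the domain that gives motor neurons and later oligodendrocyte precursors. Nkx2.2, another homeodomain protein, marks the domain next to the floor plate, and Nkx2.2 and Olig2 oppose each other where these domains meet. All of these proteins act largely as repressors in this tissue. Progenitors of the motor neuron domain thus hold Nkx6.1 and Olig2 without Nkx2.2. The libraries were made from whole cultures, and peaks of separate libraries do not show that proteins met on the same molecule or in the same cell.

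The regions were compact. Of the 1010, 981 held exactly 1 peak of each factor, 17 held 1 Nkx6.1 and 2 Olig2 peaks, 9 held 2 Nkx6.1 and 1 Olig2 peak, 2 held 1 and 3, and 1 held 3 and 1. Every peak was 300 bp wide, and the median width of a region was 342 bp (quartiles 318 and 390.75 bp, highest 943 bp). Regions with all 3 factors had a median of 410 bp, and 86.7% of them held 1 peak per factor, against 97.1% here. The rule bears on this, since a 3-factor region joins at least 3 peaks. The other paired regions were closer to those here. Nkx2.2 with Nkx6.1 had a median of 349 bp and 96.8% with 1 peak per factor, and Nkx2.2 with Olig2 had 371 bp and 93.7%. Seen from the lists, the regions took up 1021 of 4094 Nkx6.1 peaks (24.9%) and 1031 of 11747 Olig2 peaks (8.78%). The widest region, on chromosome 11 at 67862781 to 67863723 (build mm9, as all positions here), joined 1 Nkx6.1 and 3 Olig2 peaks. The other regions of 4 peaks lay on chromosome 2 at 44887180 to 44888091, with 3 Olig2 peaks, and on chromosome 15 at 70840803 to 70841626, with 3 Nkx6.1 peaks.

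The Nkx6.1 and Olig2 peaks lay almost on top of each other. Centres were a median of 40 bp apart (95% interval of the median 38 to 44, quartiles 17 and 84), and 584 of 1010 regions (57.8%, 95% Wilson interval 54.8 to 60.8) had them within 50 bp. In the 550 regions that also held Nkx2.2, the median was 54.5 bp (47 to 60) and 48.5% (44.4 to 52.7) were within 50 bp. The rule bears on this comparison and no test is made of it. Here the Nkx6.1 and Olig2 peaks had to overlap each other, and centres were at most 298 bp apart, whereas an Nkx2.2 peak could link them in a 3-factor region, where they were up to 433 bp apart. The Olig2 centre was to the right of the Nkx6.1 centre in 507 regions, to the left in 489 and at the same base in 14. Intervals here cover counting error only and treat regions as independent, which neighbours need not be.

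Some regions entered by a narrow margin. In 48 the closest Nkx6.1 and Olig2 peaks shared 100 bp or less. On chromosome 2 at 57230661 to 57231258 they shared 2 bp, on chromosome 19 at 29359809 to 29360402 6 bp, and on chromosome 10 at 86882177 to 86882764 12 bp. Just outside the rule were 39 regions of Nkx6.1 only with an Olig2 peak up to 100 bp away. Median Nkx6.1 coverage (block 1, described next) was 12.7 units in the 48 and 10.5 in the 39, and median Olig2 coverage was 16.2 and 12.2.

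Binding strength was read from tables of coverage around each peak. Each table repeats its offsets in 3 blocks of columns, and the header names no library for any of them. The values are in the deposited units, whose scale is not given, and read depth is unknown. Coverage of a region means the average within 250 bp of the centre of its strongest peak. Block 3 of the Nkx6.1 and Olig2 tables proved to be 1 library. At 80 pairs of Nkx6.1 and Olig2 peaks whose grids coincide, 17 of them with equal coordinates, block 3 was identical within 1e-06 in all 80, and blocks 1 and 2 in 0. Per the titles, 1 library, the input of replicate 2, was shared by Nkx6.1 and Olig2. The labels do not say whether it is block 3. Where along the chromosome they rose, blocks 1 and 2 followed each other closely within these regions, with a median correlation over positions of 0.929 for Nkx6.1 and 0.968 for Olig2. Block 1 against block 3 gave 0.145 and 0.157.

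**Figure D1:**
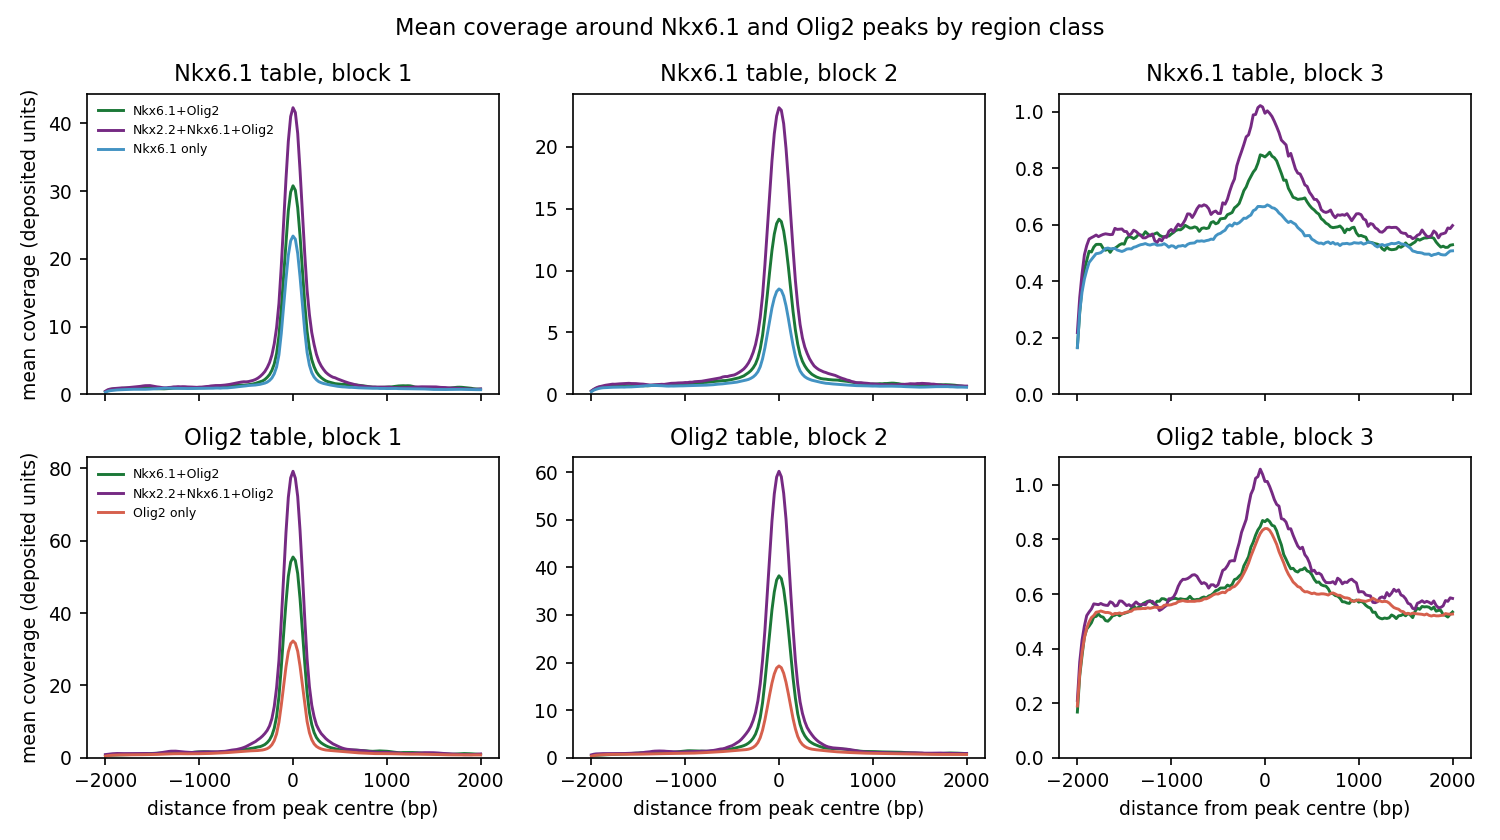
Mean coverage in deposited units (vertical axis, 1 scale per panel) against distance from the peak centre in bp, for the 1010 Nkx6.1 and Olig2 regions (green), the 550 regions of all 3 factors (purple) and regions of 1 factor (blue or red). In blocks 1 and 2 the green line peaks between the other lines, at 30.8 and 14.2 units for Nkx6.1 and 55.5 and 38.2 for Olig2. Block 3 rises far less, to 0.856 and 0.873 units.

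Coverage differed widely between the regions. Nkx6.1 coverage had a median of 11.3 units in block 1 (quartiles 8.43 and 17.0, range 4.65 to 108.3) and 6.38 in block 2 (3.99 and 10.3). Olig2 coverage had a median of 16.2 units in block 1 (9.88 and 29.4, range 4.45 to 385.3) and 14.5 in block 2 (8.73 and 24.7). Mean coverage at the centre was 16.3 and 11.4 times that of the right flank, the last 250 bp of the window, in blocks 1 and 2 for Nkx6.1, and 24.9 and 21.7 times for Olig2. In block 3 it was 1.49 times in both tables. Called peaks chose the regions, so a rise over the flank follows from the rule and is a description. Block 2 coverage above 2 times the mean flank of the list was reached at 98.9% of these regions for Nkx6.1, against 96.0% of all Nkx6.1 peaks, and at 99.4% for Olig2, against 97.5% of all Olig2 peaks. In block 1 every peak of both lists reached it. Blocks 1 and 2 of both tables all reached it at 995 of 1010 regions (98.5%). Of the other 15 regions, 11 fell short in block 2 of Nkx6.1.

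Among Nkx6.1 peaks, those of these regions stood between peaks with no partner and peaks with both partners. Median block 1 coverage was 8.94 units at Nkx6.1 only, 11.3 here, 12.0 at Nkx2.2 with Nkx6.1 and 15.8 where all 3 factors met. In block 2 the order was the same, at 3.83, 6.38, 6.64 and 10.2 units. On the log2(coverage + 1) scale the median here was 0.31 above Nkx6.1 only in block 1 (interval 0.25 to 0.37) and 0.61 above it in block 2. It was 0.45 below the 3-factor regions in block 1 (difference -0.45, interval -0.53 to -0.34) and 0.61 below them in block 2 (difference -0.61). Nkx6.1 at its 2 kinds of paired region did not differ beyond this error, at -0.08 (-0.17 to 0.02) in block 1 and -0.05 (-0.20 to 0.07) in block 2. These differences describe peaks that the rule chose from the same signal and carry no test.

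Among Olig2 peaks the order was similar. Median block 1 coverage was 10.5 units at Olig2 only, 14.1 at Nkx2.2 with Olig2, 16.2 here and 20.9 with all 3 factors, and in block 2 it was 7.33, 13.7, 14.5 and 21.3. On the log2 scale the median here was 0.58 above Olig2 only in block 1 (0.50 to 0.68) and 0.90 in block 2 (0.83 to 1.00). It differed from the 3-factor regions by -0.35 (-0.47 to -0.18) and -0.52 (-0.70 to -0.36). Against Nkx2.2 with Olig2 the difference was 0.19 (0.05 to 0.33) in block 1 and 0.08 (-0.04 to 0.23) in block 2. Within its list the typical region here ranked at percentile 68.8 for Olig2 and 56.7 for Nkx6.1 by block 1, and at 73.3 and 60.2 by block 2. Block 3 followed part of this order. In the Nkx6.1 table its medians were 0.579 units at Nkx6.1 only, 0.738 here and 0.850 with all 3 factors, and in the Olig2 table they were 0.672 at Olig2 only, 0.728 here and 0.859 with all 3 factors. Nkx2.2 with Olig2 went the other way, with the highest block 3 median (0.990 units) and a log2 difference of the regions here to it of -0.20 (-0.23 to -0.16). The part of block 3 in the order of blocks 1 and 2 was not tested.

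**Figure D2:**
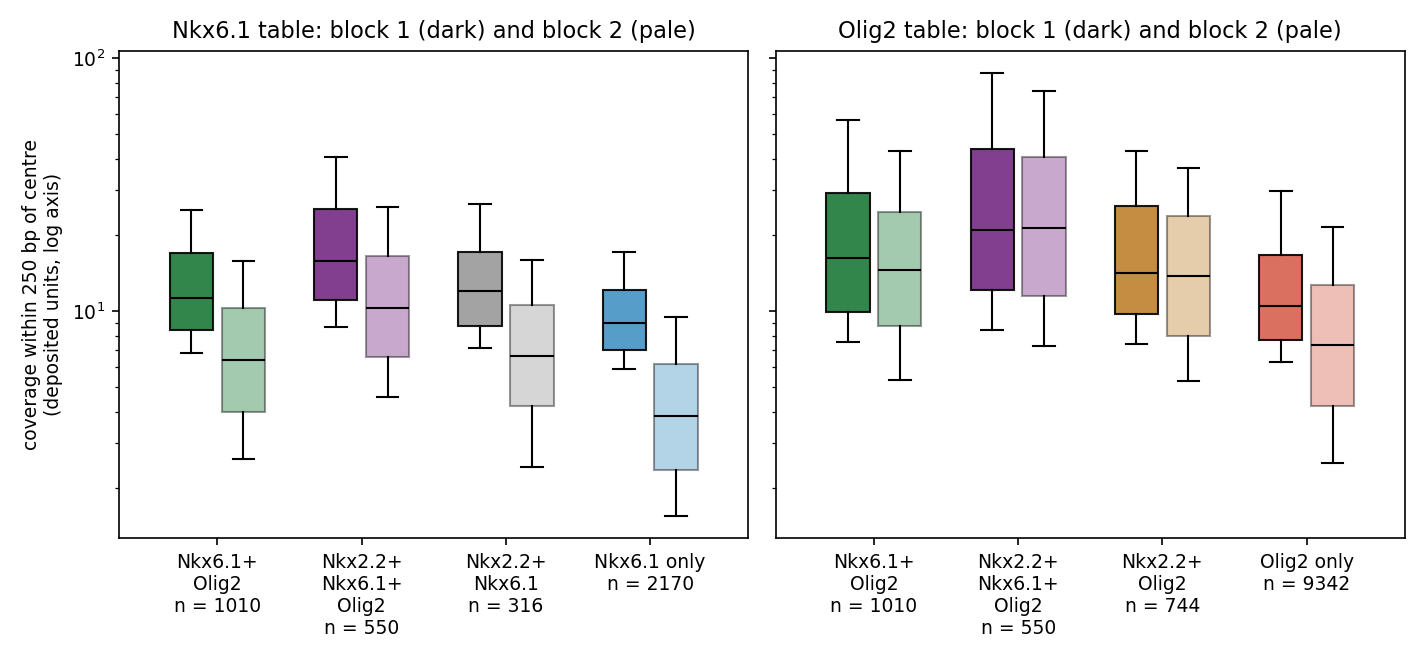
Coverage within 250 bp of the peak centre (deposited units, log axis) by region class, for the Nkx6.1 table (left) and the Olig2 table (right). Boxes give the quartiles and median, whiskers the 10th and 90th percentiles, dark boxes block 1 and pale boxes block 2. The 1010 Nkx6.1 and Olig2 regions (green) lie above regions of 1 factor and below the 550 regions of 3 factors in both tables.

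Stronger peaks of both lists fell in these regions more often than the weakest ones. Across quartiles of block 1 coverage, from lowest to highest, 17.8%, 25.8%, 25.3% and 30.9% of Nkx6.1 peaks were in these regions. The share of Nkx6.1 peaks in 3-factor regions went from 3.42% over 7.72% and 15.8% to 29.1%. For Olig2 the shares in these regions were 4.39%, 6.74%, 8.95% and 15.0%, and in 3-factor regions 1.63%, 2.38%, 5.21% and 10.2%. Most of the strongest Nkx6.1 peaks by block 1 were therefore split about evenly between regions with Olig2 alone, with both partners and with no partner (30.8%). The remaining 9.19% were in regions of Nkx2.2 with Nkx6.1. By block 2 these shares were 32.2%, 32.2%, 25.7% and 9.97%. Of the strongest Olig2 peaks, 65.4% by block 1 and 59.5% by block 2 had no partner. Sorting the Nkx6.1 list by block 3 gave a similar rise, with 18.9%, 24.0%, 27.3% and 29.4% of its peaks in these regions. Its 3-factor shares were then 6.64%, 12.7%, 13.3% and 23.5%. In the Olig2 list the rise by block 3 was smaller, at 7.46%, 8.58%, 9.91% and 9.16% here. The 3-factor shares there were 2.72%, 4.22%, 5.45% and 7.05%. The part of block 3 in the rises by blocks 1 and 2 was not tested.

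How far the strength of one factor went with that of the other depended on the block. Over the 1010 regions, Nkx6.1 and Olig2 coverage in block 1 had a rank correlation of 0.130 (Pearson's r on the log2 scale 0.137). In block 2 the rank correlation was 0.443 (r = 0.461), while block 1 of one factor against block 2 of the other gave 0.169 and 0.194. Correlation within a factor, block 1 against block 2, was 0.625 for Nkx6.1 and 0.794 for Olig2. Block 2 and block 3 were correlated at 0.085 for Nkx6.1 and 0.196 for Olig2, so block 3 moved little with either. In the 3-factor regions the same pattern was seen, at 0.165 for block 1 and 0.394 for block 2. These are descriptions over regions that share libraries.

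**Figure D3:**
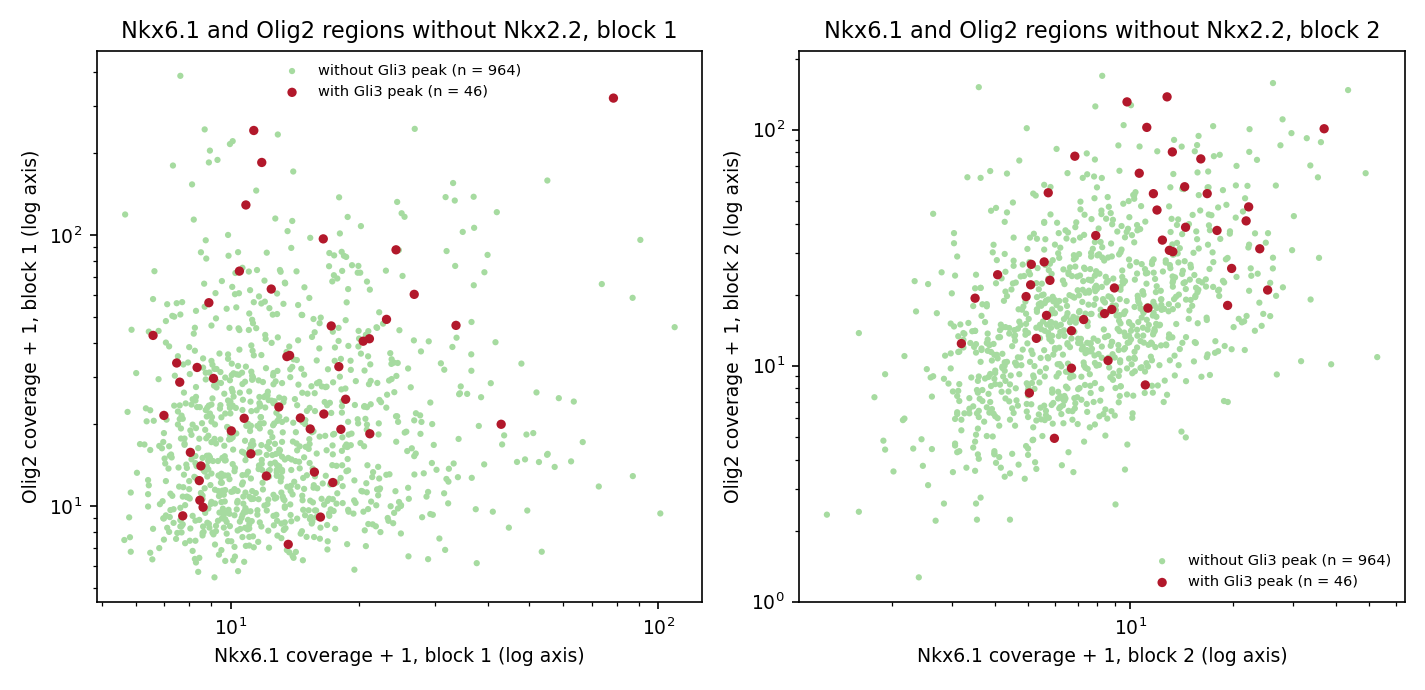
Nkx6.1 coverage + 1 (horizontal) against Olig2 coverage + 1 (vertical), deposited units on log axes, for each of the 1010 regions in block 1 (left) and block 2 (right). Red points are the 46 regions with a Gli3 peak. The cloud is nearly round in block 1 (rank correlation 0.130) and tilted in block 2 (0.443), and most red points lie in the upper part.

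The balance of the factors varied widely from region to region. The log2 ratio of Nkx6.1 to Olig2 coverage (each + 1, block 1) had a median of -0.43 with quartiles of -1.29 and 0.24, and ran from -5.66 to 3.43. Its zero has no meaning without a known scale, but its order held between blocks, with a rank correlation of 0.809. At the Nkx6.1 end was a region on chromosome 4 at 125127912 to 125128359. It had 100.1 Nkx6.1 units in block 1 and 52.0 in block 2, the second highest block 1 value of all 1010, and 8.38 and 9.87 Olig2 units, placing 854 for Olig2. Next to it in this order came regions on chromosome 7 at 116159870 to 116160408 (52.4 Nkx6.1 and 5.78 Olig2 units in block 1) and on chromosome 1 at 42115895 to 42116217 (86.2 and 11.9). At the Olig2 end was a region on chromosome 4 at 33910856 to 33911192, which had the highest Olig2 coverage of all (385.3 units in block 1, 150.3 in block 2) and only 6.63 and 2.59 Nkx6.1 units. It was followed by regions on chromosome 11 at 85452289 to 85452612 (244.04 Olig2 and 7.70 Nkx6.1 units) and on chromosome 1 at 131105081 to 131105417 (179.3 and 6.34). The Nkx6.1 and Olig2 centres lay 37, 24 and 37 bp apart in these 3 Olig2-rich regions. In the 3 Nkx6.1-rich regions they lay 148, 239 and 23 bp apart, and the peaks of the second of these shared only 61 bp.

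A few regions were strong for both factors. The best summed rank belonged to a region on chromosome 2 at 31465403 to 31465705. Its centres were 3 bp apart, and it placed 6 for Nkx6.1 (77.6 units in block 1, 36.0 in block 2) and 2 for Olig2 (318.8 and 99.9). Block 3 was 1.06 units there. It was also the only one of the 10 best to carry a Gli3 peak. The next was on chromosome 7 at 141306076 to 141306466, with 54.1 Nkx6.1 and 157.8 Olig2 units in block 1. On chromosome 6 at 51943020 to 51943383, Nkx6.1 reached 89.8 and Olig2 94.8 units, and on chromosome 16 at 72553940 to 72554248 they reached 40.9 and 120.3.

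The other 6 of the 10 had 32.1 to 38.9 Nkx6.1 units and 83.4 to 154.4 Olig2 units in block 1. They lay on chromosome 14 at 32482848 to 32483162, chromosome 11 at 67911043 to 67911395, chromosome 1 at 11128262 to 11128564 and at 195987301 to 195987605, chromosome 8 at 92768496 to 92769004, and chromosome 9 at 37261510 to 37261811. Block 2 disagreed with block 1 most at the last of these, where Nkx6.1 had 38.9 units in block 1 and 5.89 in block 2. At the region on chromosome 8 both factors were higher in block 2 (42.5 and 146.1 units) than in block 1 (33.9 and 101.6). The nearest Nkx2.2 peak to any of the 10 was 16936 bp away.

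Some of these regions had a listed Nkx2.2 peak close by. An Nkx2.2 peak lay within 1 kb of 34 regions (3.37%, 2.42 to 4.67) and within 10 kb of 117 (11.6%, 9.75 to 13.7). Over all 12522 regions without Nkx2.2 these shares were 2.51% and 10.1%, so the regions here were near that background. The differences to Nkx6.1 only and Olig2 only regions had intervals that included 0 at both distances. Within 10 kb they were 1.91 points (-0.35 to 4.33) and 1.52 points (-0.41 to 3.72).

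Where an Nkx2.2 peak centre lay 0.3 to 1.75 kb away, the Nkx2.2 table reached over the region and its coverage there could be read. This held for 39 regions. Nkx2.2 coverage within 250 bp of the region's centre had a median of 8.33 units in block 1 (quartiles 5.53 and 11.9), against 1.34 units at the mirrored place on the other side of the Nkx2.2 peak and 23.1 at the peak itself. It was above the mirrored place in 34 of 39 regions (87.2%, 73.3 to 94.4) in block 1, in 34 in block 2 (medians 3.26 and 0.853 units), and in 31 in both blocks. Block 3 of the Nkx2.2 table was also higher at 32 of 39 (medians 1.06 and 0.572 units). The 5th percentile of listed Nkx2.2 peaks in block 1 was 9.43 units, between the median and the upper quartile here (8.33 and 11.9 units). It also lay between them at Nkx6.1 only regions in this range of distances (5.23 and 9.98 units). At Olig2 only regions it lay above the upper quartile (8.85 units), and some of them passed it too. The share of regions past it was not compared between the classes.

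Nkx2.2 coverage was raised at neighbouring regions of 1 factor too, but less. Its block 1 median was 5.23 units at 79 Nkx6.1 only regions and 5.37 at 285.0 Olig2 only regions in the same range of distances. On the log2(coverage + 1) scale the regions here were 0.58 above Nkx6.1 only (0.13 to 1.16) and 0.55 above Olig2 only (0.25 to 0.95) in block 1, and 0.59 (0.17 to 1.05) and 0.47 (0.20 to 0.94) in block 2. In block 3 they were 0.14 (0.01 to 0.34) and 0.15 (0.02 to 0.27) above. The nearby listed Nkx2.2 peaks differed too. Their block 1 medians were 23.1 units here, 19.3 for Nkx6.1 only and 20.3 for Olig2 only, and in block 2 they were 8.22, 5.62 and 5.20. Block 3 went the other way, at 0.804, 1.00 and 1.15 units. The part of the neighbouring peaks in the differences between regions was not tested. The share of regions above the mirrored place did not differ beyond counting error (15.0 points, -1.35 to 28.0, against Nkx6.1 only in block 1). At the other 971 regions Nkx2.2 coverage was not read.

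**Figure D4:**
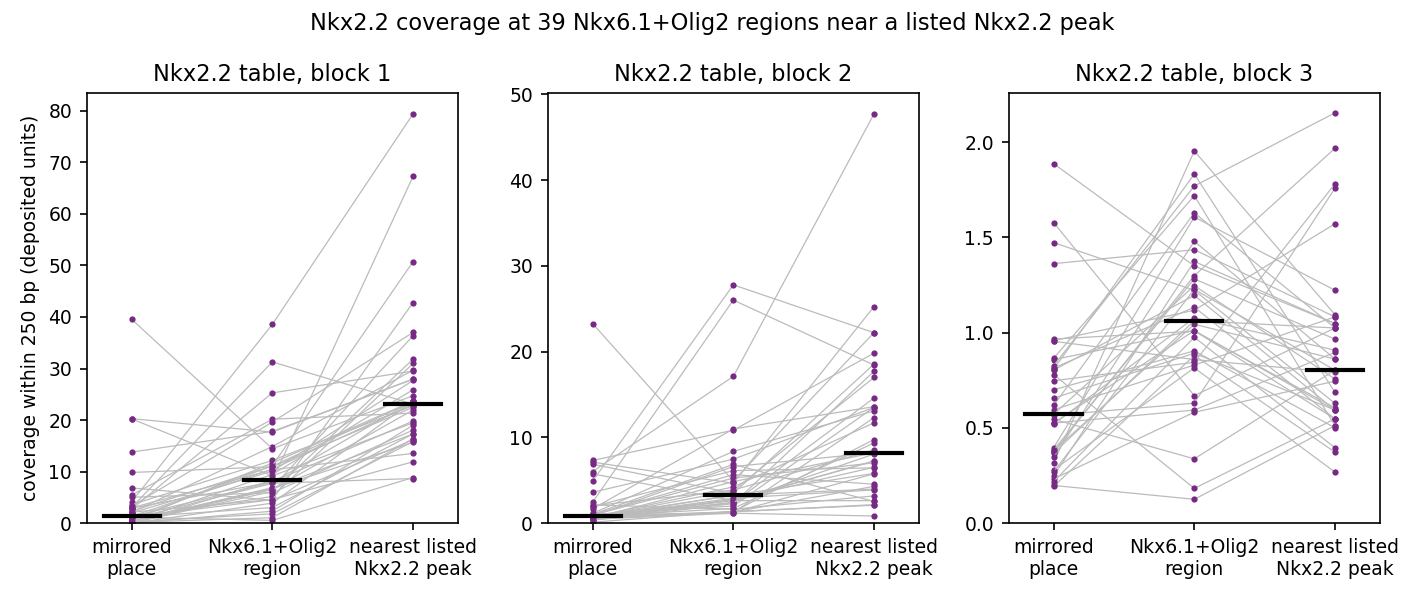
Nkx2.2 coverage within 250 bp (deposited units, 1 linear scale per block) at the mirrored place, at the Nkx6.1 and Olig2 region and at the nearest listed Nkx2.2 peak, for the 39 regions within reach; each grey line is 1 region and black bars are medians. In block 1 the medians are 1.34, 8.33 and 23.1 units, and in block 3 the middle median, 1.06, is the highest.

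The regions nearest to an Nkx2.2 peak show how the rule parts neighbours. On chromosome 17, regions at 15518457 to 15518789 and at 15519188 to 15519492 flanked 1 Nkx2.2 peak with gaps of 65 and 33 bp. The left one had 5.79 Nkx6.1 and 43.2 Olig2 units in block 1, and the right one 14.9 and 27.4. Nkx2.2 coverage was 17.8 units at the left one, 17.7 at the right one and 27.9 at the peak between them in block 1. In block 2 it was 4.92, 27.8 and 22.2, so there the right region exceeded the listed peak. The centres of the regions were 398 and 338 bp from that of the peak, so their windows of coverage overlapped its window. The mirrored place of each fell near the other region, with 13.8 units for the left one and 20.3 for the right one in block 1. A region on chromosome 11 at 44543854 to 44544156, 60 bp from an Nkx2.2 peak, had 14.9 Nkx2.2 units against 2.13 at the mirrored place.

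Gli3, which the rule did not use, was listed at 46 of the 1010 regions, or 4.55% (3.43 to 6.02). Over all 17913 regions of the 3 ventral lists the share was 3.82%, within that interval, so the regions here were near that background. The regions here held Gli3 more often than Olig2 only regions (2.10%), by 2.46 points (1.29 to 3.95), and than Nkx6.1 only regions (0.829%), by 3.72 points (2.50 to 5.22). They held it less often than 3-factor regions (12.5%), with a difference of -7.99 points (-11.2 to -5.08), and than Nkx2.2 with Olig2 (10.2%), with -5.66 points (-8.30 to -3.20). The difference to Nkx2.2 only regions (7.17%) was -2.61 points (-4.03 to -0.95), but -1.54 points, with an interval that included 0, when Gli3 peaks had to share at least 150 bp. Against Nkx2.2 with Nkx6.1 the interval included 0 (1.71 points, -1.01 to 3.70).

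Within these regions, those with Gli3 had higher Olig2 coverage in both blocks. Median Olig2 coverage was 25.7 units in block 1 at the 46 regions with Gli3 (quartiles 15.4 and 45.3) and 15.9 at the 964 without (9.81 and 28.4). In block 2 it was 26.2 and 14.1 units. The log2 differences were 0.66 (0.24 to 1.10) and 0.84 (0.45 to 1.31). Median Nkx6.1 coverage was 12.3 units with Gli3 and 11.3 without in block 1, a log2 difference of 0.11 (-0.18 to 0.41), and 9.20 and 6.33 in block 2, a difference of 0.48 (-0.01 to 0.77). The quartiles overlapped in every case. Whether the Olig2 difference exceeds the Nkx6.1 difference was not tested. Block 3 was higher with Gli3 as well, at 0.999 against 0.728 units in both tables, and its part in the result was not tested.

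Across quartiles of Olig2 coverage among the regions, from lowest to highest, the share with Gli3 rose from 1.98% over 2.78% and 5.14% to 8.33% in block 1, and from 1.19% to 9.92% in block 2. The highest quartile exceeded the lowest by 6.36 points (2.55 to 10.6) and 8.73 points (4.90 to 13.1). By Nkx6.1 coverage it went from 5.14% to 4.37% in block 1, with a difference of -0.77 points (-4.72 to 3.13), but from 1.58% to 7.94% in block 2, with 6.36 points (2.70 to 10.5). By block 3 of the Olig2 table it went from 3.16% to 8.73%, with 5.57 points (1.43 to 9.98). By block 3 of the Nkx6.1 table, the same library, it went from 1.98% to 8.73%, with 6.75 points (2.89 to 11.0). The part of block 3 in the rises with Olig2 and Nkx6.1 coverage was not tested. Of the 270 regions above the median for both factors in block 1, 21 held Gli3 (7.78%). Of the 235 above it for Olig2 only, 13 did (5.53%), of the 235 above it for Nkx6.1 only, 4 (1.70%), and of the 270 above it for neither, 8 (2.96%).

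**Figure D5:**
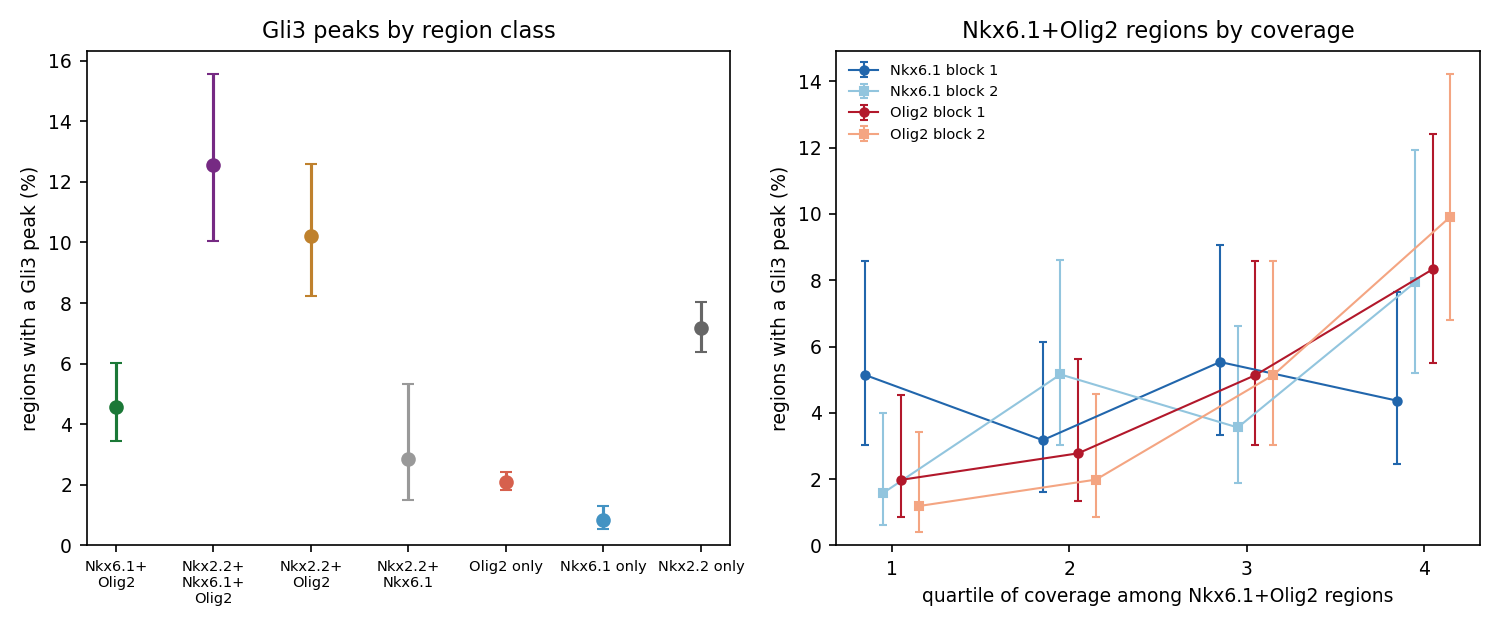
Left, percent of regions with a Gli3 peak by region class, with 95% Wilson intervals. Right, the same for the 1010 Nkx6.1 and Olig2 regions by quartile of coverage in blocks 1 and 2 of each table. The regions hold Gli3 at 4.55%, near the 3.82% over all regions of the 3 ventral lists. The share rises with Olig2 coverage in both blocks, from 1.98% to 8.33% in block 1. By Nkx6.1 coverage it goes from 5.14% to 4.37% in block 1 and from 1.58% to 7.94% in block 2.

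Gli3 was then compared within quartiles of coverage over the whole list. Coverage can still differ between classes within a quartile, above all in the highest, which ran from 19.0 to 616.6 Olig2 units in block 1. The 90th percentile of Olig2 coverage in block 1 was 57.0 units here, 29.9 at Olig2 only and 87.4 in 3-factor regions. The part of such differences in the results below was not tested. Among peaks in the highest quartile of the Olig2 list by block 1, 30 of 440 regions here held Gli3 (6.82%) against 55 of 1915 Olig2 only regions (2.87%), a difference of 3.95 points (1.77 to 6.77). In the lower quartiles the differences were -0.58, 0.63 and 1.55 points, each with an interval that included 0. By block 2 the difference in the highest quartile was 2.27 points (-0.07 to 5.14), so it did not hold beyond counting error there, and only the lowest quartile, with 1 region with Gli3 here, had an interval above 0 (1.23 points, 0.04 to 7.38). Against 3-factor regions, the share here was lower in the highest quartile by both blocks, at -8.33 points (-13.3 to -3.78) and -8.53 points (-13.2 to -4.13). Over all 4 quartiles it was lower beyond counting error in 3 by block 1 and in 2 by block 2. The exceptions were the second quartile of block 1 (-3.54 points, -12.3 to 1.49) and the lower quartiles of block 2 (1.41 and -0.72 points, both with intervals that included 0). Against Nkx2.2 with Olig2 it was lower in 3 of 4 quartiles by each block, and not beyond counting error in the highest quartile of block 1 (-2.78 points, -7.33 to 1.27) or the lowest of block 2 (-0.23 points, -7.40 to 6.06). Against Nkx6.1 only regions, the share here was higher in 3 of 4 quartiles of the Nkx6.1 list by block 1 and in 4 of 4 by block 2. In the highest quartile it was higher by 4.12 points (1.33 to 7.29) and 4.77 points (1.28 to 8.30). In the second quartile of block 1 the interval included 0 (1.74 points, -0.22 to 4.67). The counts of quartiles changed with block 3. By block 3 of the Olig2 table the share here was higher than in Olig2 only regions in 3 of 4 quartiles. It was lower than in 3-factor regions in 2 of 4 and than in Nkx2.2 with Olig2 in 1 of 4. By block 3 of the Nkx6.1 table it was higher than in Nkx6.1 only regions in 3 of 4, and lower than in 3-factor regions in 2 of 4.

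Gli3 centres were a median of 92.5 bp from the Nkx6.1 centre and 80 bp from the Olig2 centre, nearer to Nkx6.1 in 26 regions and to Olig2 in 17. The strongest regions with Gli3, after the one on chromosome 2, lay on chromosome 11 at 62994178 to 62994515, with 23.4 Nkx6.1 and 87.1 Olig2 units in block 1. Then came chromosome 5 at 132121468 to 132121786 (25.9 and 59.3 units), chromosome 13 at 31623639 to 31623957 (32.7 and 45.4) and chromosome 11 at 11841478 to 11841820 (22.2 and 47.8). The region on chromosome 5 had an Nkx2.2 peak 293 bp away and 10.4 Nkx2.2 units in block 1 at its own centre, against 2.97 at the mirrored place.

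The regions were spread over 20 of 21 chromosomes, with none on Y. Their share differed from that of the other ventral regions, by intervals without adjustment, on 3 of the 21, where about 1.05 would be counted at this level. Chromosome 12 held 6.83% of them against 4.85% of other regions (difference 1.98 points, 0.54 to 3.73) and chromosome 4 held 7.62% against 5.93% (1.70 points, 0.17 to 3.53). Chromosome 9 held 3.17% against 5.87% (-2.71 points, -3.69 to -1.39). In fixed windows of 100 kb, 860 of them were alone, 138 were in windows of 2 and 12 in 4 windows of 3. Fixed windows part neighbours at their borders, and 221 regions (21.9%, 19.4 to 24.5) had another such region within 100 kb. That share was 16.4% (13.5 to 19.7) for the fewer 3-factor regions and 27.2% (25.4 to 29.1) for the more numerous Nkx6.1 only regions. Of the windows of 3, those starting at 27400001 on chromosome 12, at 94800001 on chromosome 15 and at 109900001 on chromosome 4 each held 3 Nkx6.1 peaks, 5, 6 and 5 Olig2 peaks, and 0 Nkx2.2 and 0 Gli3 peaks. Another region of the same kind lay within 10 kb of 5.84% (4.56 to 7.46) of these regions, and within 10 kb of 3.45% (2.22 to 5.33) of the fewer 3-factor regions.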

How the data were processed

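Per the submitters' processing notes, Bowtie2 2.2.4 and HOMER were used with mm9. Their settings, and any pooling of replicates, are not given in the sources used here. Deposited by the authors were peak lists with chromosome, start and end and no score, and tables of coverage signal every 25 bp up to 2000 bp from each peak centre, in 3 blocks of columns that name no library, per the file headers. In each block, values up to 20 steps were whole multiples of 1 step within 0.02 of a step in 100% of cases, so the blocks appear scaled per library by an unknown factor. Table rows were matched to the peak list by line. Columns of other samples left out numbered 0. Titles gave each sample's factor and whether it was a ChIP or an input.

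The regions, the comparisons and the rule for named regions were chosen with earlier results of these data known. Named were the 10 regions with the best summed rank of Nkx6.1 and Olig2 block 1 coverage, the 3 at each end of their ratio, the 3 with most peaks, the 3 nearest to an Nkx2.2 peak, the 3 with the smallest overlap, the 5 strongest with Gli3 and the 3 windows of 100 kb with most regions (of 4 tied, the first 3 in the text order of chromosome names). Where a factor had several peaks in a region, the one highest in block 1 was used for every block. Shares have 95% Wilson intervals, differences of shares Newcombe intervals, and medians order-statistic intervals combined in the same way; none is adjusted for the number of comparisons. No test over samples was possible with 1 list per factor. Python 3.11.15, numpy 2.4.6 and scipy 1.17.1 were used, and joining and intervals were tried on simulated data. No genome or annotation of mm9 was used here, so the planned motif searches and genes next to regions were not run and no sequence or gene is given at a region.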

Additional observations from a re-analysis of the deposited data

How the results depend on the processing

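Of the 95 alternative values computed, none changed the sign of a called difference. Values counted as unchanged numbered 83: they stayed within the interval of the reported value, within 1.5 times a reported count, or, for differences in the Gli3 share, on the same side of the threshold. The number of regions was 940 when joined peaks had to share 150 bp, and 976 without those within 1000 bp of an Nkx2.2 peak. The Gli3 difference to Nkx2.2 only regions weakened to -1.54 points, no longer past 0, with Gli3 peaks sharing at least 150 bp. The rank correlation of the factors moved to 0.443 in block 2, an alternative chosen after seeing the data. Nkx6.1 against Nkx6.1 only moved to 0.24 in block 1 within 100 bp of the centre and to 0.72 in block 2 with a pseudocount of 0.1. Differences in block 3 grew with that pseudocount. They became -0.18 (3 factors) and 0.30 (Nkx6.1 only) in the Nkx6.1 table, and -0.21 (3 factors), -0.40 (Nkx2.2 with Olig2) and 0.10 (Olig2 only) in the Olig2 table. With the block divided by its right-flank median they were 0.21 (Nkx6.1 only), -0.15 (3 factors) and -0.29 (Nkx2.2 with Olig2). Leaving out the 10% of regions highest in block 3 and joining peaks at 150 bp for the Gli3 share were also chosen after seeing the data. Motif searches and genes next to regions could not be run without a genome of mm9. No replicate was left out because columns name no library. No paired analysis was possible because the peak lists and columns carry no replicate number.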
